A study of Mus musculus with 2 samples.

Results

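Of the 754 regions that the authors called as enriched for COUP-TFI in embryonic mouse neural retina, 224 (29.7%, 95% exact binomial interval 26.5 to 33.1) had their centre within 5 kb of an end of an annotated gene. They were picked by position alone: the centre of the 251 bp peak had to lie at most 5000 bp from the first or the last base of any gene, coding or non-coding, inside or outside the gene, in the RefSeq table of GRCm38, which is the assembly also called mm10. Chromatin came from crosslinked neural retina of wildtype E14.5 embryos and was recovered in 1 library with an anti-COUP-TFI antibody and in 1 input library without antibody. Both groups thus shared genotype, stage and tissue and differed in the antibody. The labels do not say how many embryos were pooled. Each group has 1 library, so nothing here could be checked against replicates. A peak list holds no expression, so the tissue label could not be set against marker genes.

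COUP-TFI is an orphan nuclear receptor encoded by Nr2f1. It binds DNA mostly as a dimer on repeats of the hexamer AGGTCA, prefers copies spaced by a single base (an arrangement called DR1), and can repress or activate transcription. In the developing eye, COUP-TFI and its relative COUP-TFII take part in patterning the optic vesicle and in the differentiation of retinal neurons. The ends of a gene hold its promoter on one side and its terminator on the other, and nuclear receptors bind at promoters as well as at distant enhancers.

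The DNA that a peak and a promoter share was looked at first, since it is the sequence on which enrichment at a promoter would rest. RefSeq promoter windows, each running from 250 bp before to 50 bp after a start on GRCm38.p6, were touched by 11 of the 224 peaks, in 12 windows. They belonged to the protein-coding genes Trappc10, Il18r1, Cyb5r4, Slc6a4, Ndel1, Serpinb6a, Ripk1, Nrf1 and Chrna1 and to the long non-coding genes Gm36150, Gm41252 and Gm32352. Windows existed for 17274 of the 21631 protein-coding genes only. Acbd3, Tm2d1, Cox17, Smim5, Olfr166 and Il15 had none, though an end of each lay within 250 bp of a peak centre. Their peaks could thus be neither counted here nor searched for motifs. The stretches shared by peak and window are printed for 7 of the protein-coding genes and for 1 non-coding gene as a contrast. Each runs 5′ to 3′ in the direction of its gene, from the RefSeq window, in lower case. Capitals mark every match on either strand to a motif named in the paragraphs on motifs after them, those of other factors included.
Nrf1 (chr6:30047738-30047978, plus strand): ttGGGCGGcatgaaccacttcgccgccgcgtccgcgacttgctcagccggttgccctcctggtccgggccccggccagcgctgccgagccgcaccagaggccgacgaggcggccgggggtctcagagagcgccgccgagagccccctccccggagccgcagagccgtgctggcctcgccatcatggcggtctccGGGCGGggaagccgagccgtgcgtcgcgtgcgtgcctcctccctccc
Ndel1 (chr11:68853170-68853385, minus strand): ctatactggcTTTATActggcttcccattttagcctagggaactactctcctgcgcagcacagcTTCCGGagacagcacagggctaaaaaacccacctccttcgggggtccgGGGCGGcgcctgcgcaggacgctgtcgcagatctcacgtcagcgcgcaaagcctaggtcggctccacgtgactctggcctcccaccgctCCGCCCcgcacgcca
Chrna1 (chr2:73580289-73580467, minus strand): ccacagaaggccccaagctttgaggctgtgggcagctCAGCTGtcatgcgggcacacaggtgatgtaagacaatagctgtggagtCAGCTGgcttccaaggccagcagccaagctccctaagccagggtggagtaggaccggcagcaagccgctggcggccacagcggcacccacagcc
Ripk1 (chr13:34002624-34002772, plus strand): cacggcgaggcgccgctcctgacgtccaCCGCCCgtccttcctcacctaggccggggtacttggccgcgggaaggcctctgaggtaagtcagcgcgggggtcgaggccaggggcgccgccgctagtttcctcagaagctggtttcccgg
Cyb5r4 (chr9:87021950-87022078, plus strand): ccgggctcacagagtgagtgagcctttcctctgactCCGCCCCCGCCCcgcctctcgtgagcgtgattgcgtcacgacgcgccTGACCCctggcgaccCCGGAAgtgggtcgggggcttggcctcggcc
Il18r1 (chr1:40465968-40466055, plus strand): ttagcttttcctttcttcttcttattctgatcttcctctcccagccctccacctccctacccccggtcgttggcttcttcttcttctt
Trappc10 (chr10:78244828-78244895, minus strand): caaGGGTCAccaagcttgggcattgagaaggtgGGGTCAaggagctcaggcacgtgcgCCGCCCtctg
Gm41252 (chr14:120578321-120578571, plus strand): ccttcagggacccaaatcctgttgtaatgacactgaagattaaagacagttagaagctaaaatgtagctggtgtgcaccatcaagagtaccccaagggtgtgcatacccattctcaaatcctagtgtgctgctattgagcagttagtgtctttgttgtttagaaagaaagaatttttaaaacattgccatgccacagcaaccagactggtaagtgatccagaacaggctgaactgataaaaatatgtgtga

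None of the 12 touched windows held the hexamer AGGTCA on either strand (0 of 12, upper limit of the 95% exact binomial interval 26.5%), against 5340 of all 32851 RefSeq promoter windows of the same 300 bp (16.3%). The longer form AAAGGTCA was absent from the touched windows too and stood in 1.51% of all windows. Direct repeats of AGGTCA with 0 to 5 bases between them (DR0 to DR5) were found in none of the touched windows. Such repeats were rare everywhere, and the commonest, DR1, stood in 13 of the 32851 windows (0.0396%). The motif GGGTCA, a variant of that hexamer that was searched after the sequences had been seen, stood in 3 of the 12 windows (95% exact binomial interval 5.49 to 57.2%), against 13.7% of all windows. Both copies in the Trappc10 stretch and the copy in the Cyb5r4 stretch lay within the peak, while the copy in the Gm36150 window lay outside it. A missing match says only that these letters are not in these windows, and most of the 251 bp of several peaks lay beyond them.

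Promoter motifs of other factors were searched in the same 12 windows, which include DNA outside the peaks. The GC box GGGCGG, which Sp1-type factors bind, stood in 7 of the 12 (58.3%, 27.7 to 84.8), against 35.7% of all windows and 46.7% of those of protein-coding genes. All 7 belonged to protein-coding genes, and of the 9 protein-coding windows only those of Il18r1 and Chrna1 lacked it. In 5 of the 7 a copy lay wholly within the peak. The ETS core CCGGAA stood in 5 (41.7%, 15.2 to 72.3), all of protein-coding genes, against 14.9% of all windows and 18.9% of protein-coding ones, and within the peak in 2 of the 5, Cyb5r4 and Ndel1. The E-box CAGCTG, a site of basic helix-loop-helix factors, also stood in 5, against 16.3% of all windows, but within the peak in 1 of the 5, Chrna1, with 2 copies. The TATA motif TATAAA stood in 2 windows (16.7%) against 13.6%, within the peak at Ndel1, and GCGCATGC, a core of the sites that NRF1 binds, in 2 against 2.71%, both times outside the peak. The CCAAT box, which stood in 37.4% of all windows, was in none of the 12, nor were GCCATNTT, the core of YY1 sites, or the homeobox motif TAATTA. The windows of Serpinb6a and Ripk1 overlap and are touched by the same peak. The CCGGAA match of the Ripk1 window also lies within the Serpinb6a window. These 2 windows are thus not independent counts, which the intervals do not take into account. With 12 windows every interval was wide, and the intervals of GGGCGG and CAGCTG reached down to 27.7% and 15.2%.

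In base composition the touched windows ran from Nrf1, with 77.0% G and C and 43 CpG, to Gm41252, with 41.0% and no CpG. The median was 60.2% G and C and 22 CpG per window, against 52.7% and 7 over all windows and 56.7% and 13 over protein-coding ones. The wider set of 133 windows whose start lay within 5 kb of one of the peaks had a median of 55.7% and 9 CpG. In those 133 windows AGGTCA stood in 22 (16.5%, 10.7 to 24.0), close to the 16.3% of all windows, and no direct repeat was found. GGGCGG stood in 39.8% of them (31.5 to 48.7), CAGCTG in 17.3% (11.3 to 24.8), CCGGAA in 16.5% (10.7 to 24.0) and CCAAT in 34.6% (26.6 to 43.3), where all windows had 37.4% for the last. Windows of a gene with several starts overlap, so these are not independent counts.

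Next, the peaks were placed relative to the gene ends. Of their centres, 22 lay within 250 bp of an end, 77 within 1000 bp and 134 within 2000 bp, so that 90 of the 224 (40.2%) lay in the outer 3 kb. Each distance was taken to the nearest of all gene ends, which by itself favours short distances. How much of the genome lies at each distance from an end was not measured. In 12 peaks the end of the gene fell within the 251 bp of the peak. The centre lay inside the gene of the nearest end in 99 peaks (44.2%, 37.6 to 51.0) and outside it in the others. This share was 59.1% within 250 bp (36.4 to 79.3) and 34.4% beyond 2000 bp (24.7 to 45.2), but a short gene can hold only a near centre. Some of those outside lay within another gene, so that 136 of the 224 (60.7%, 54.0 to 67.2) had their centre inside a gene of any kind. Of the other peaks, 281 of 530 did (53.0%, 48.7 to 57.3), and the intervals overlapped.

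**Figure D1:**
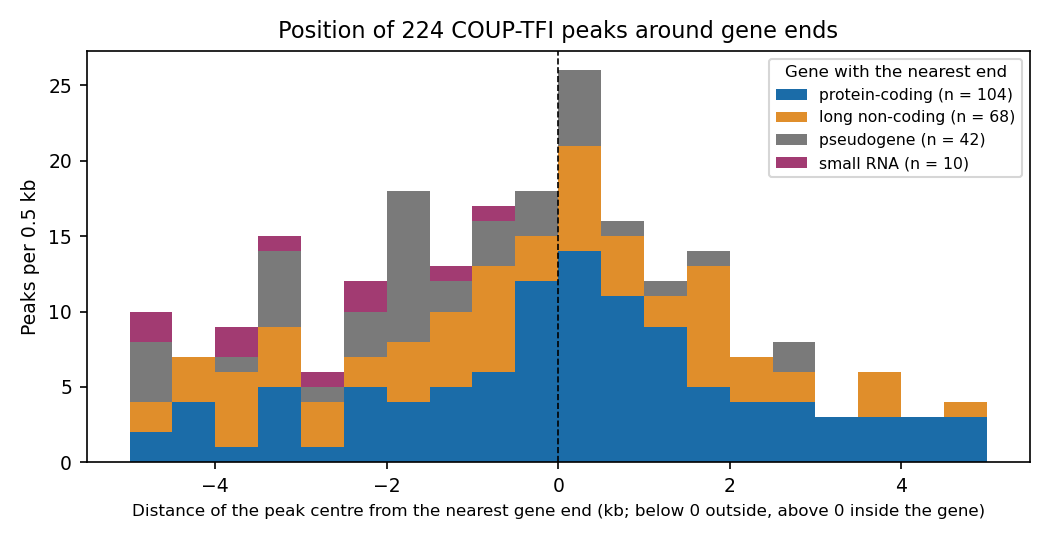
Distance of each of the 224 peak centres from the nearest gene end (kb, x axis; outside the gene below 0, inside above 0), stacked by kind of gene in bins of 0.5 kb, with the number of peaks on the y axis. The tallest bar is the first 0.5 kb inside the gene, and 77 of the 224 lay within 1000 bp of it.

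The strand of the nearest gene, taken from the promoter table, was known for 137 of the 224 peaks, which allowed starts and 3′ ends to be told apart. From here on, a start is the outermost base of the gene on its 5′ side. The promoter windows instead follow each RefSeq start, and a gene can have several. A centre downstream of the outermost start can thus lie upstream of another start, as at Ripk1. The start was the nearest end in 76 of the 137 (55.5%, 46.7 to 64.0), an interval that includes an even split. Within 1 kb it was the start in 32 of 48 (66.7%, 51.6 to 79.6). For protein-coding genes the share was 50 of 82 (61.0%, 49.6 to 71.6), and for long non-coding genes 26 of 55 (47.3%, 33.7 to 61.2). The most filled position was the first 1 kb downstream of a start, with 20 peaks, 15 of them at protein-coding genes, against 12 in the 1 kb upstream. The last 1 kb of genes held 6 peaks and the 1 kb past the 3′ end 10. Whether starts and 3′ ends differ was not tested, since peaks of 1 library are not replicates.

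**Figure D2:**
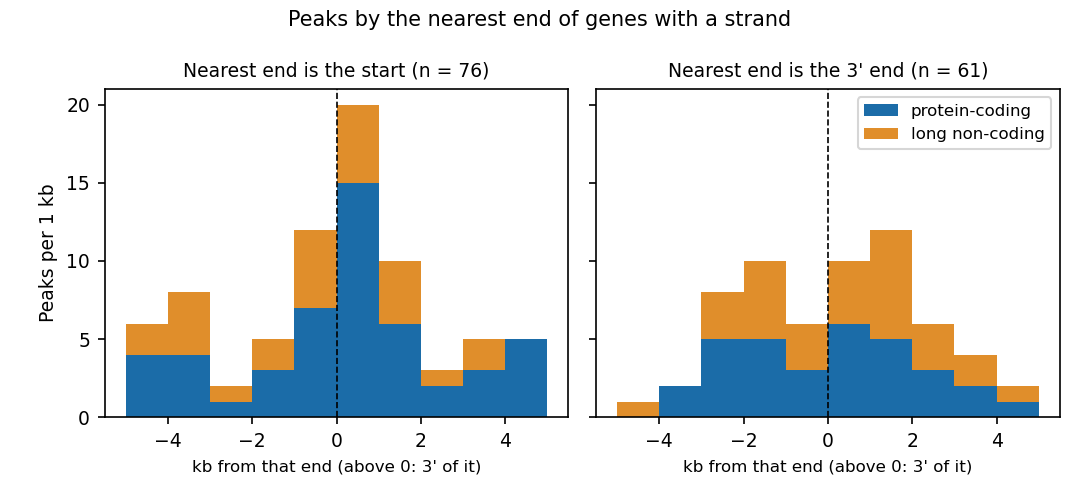
Peaks whose nearest gene has a known strand, by the distance of the centre from the start (left, 76 peaks) or the 3′ end (right, 61 peaks), in bins of 1 kb, with downstream positions above 0. The start is the outermost base of the gene on its 5′ side, not every annotated start. The tallest bar is the first 1 kb downstream of the start, with 20 peaks, of which 15 are at protein-coding genes.

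The gene with the nearest end was protein-coding in 104 peaks (46.4%, 39.8 to 53.2), long non-coding in 68 (30.4%, 24.4 to 36.8), a pseudogene in 42 (18.8%, 13.9 to 24.5) and a small RNA gene in 10 (4.46%, 2.16 to 8.06). Of all 49554 genes in the table these kinds made up 43.7%, 25.6%, 21.2% and 9.52%. The last kind took in every gene that was none of the others, so it may hold genes other than small RNA genes. In all, 290 different genes (0.585% of 49554) had an end within reach of a peak, and 142 of them were protein-coding (0.656% of 21631). Protein-coding genes in reach had a median length of 19.7 kb, against 17.3 kb for all protein-coding genes, and long non-coding genes one of 8.1 kb against 8.4 kb.

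Every peak had few tags, near ends as elsewhere. The 224 peaks held 10 to 21 tags with a median of 12, and 170 of them (75.9%) held at most 12, where the caller required 10. A tag count is the number of ChIP reads the caller counted in the peak, and single counts carry wide intervals: 10 tags have a 95% exact Poisson interval of 4.8 to 18.39. At least 14 tags were found in 42 of the 224 (18.8%, 13.9 to 24.5), against 17.8% of all 754 peaks. The fold over input, as given by the authors for each peak like all folds here, had a median of 5.92 near ends and over all peaks. Scaled input rose above its lowest value, 1.9 tags, in 13 of the 224 (5.80%, 3.13 to 9.72) against 5.44% of all peaks, and where it did not, the fold over input depended on no other quantity than the tags. Of 1283 candidate regions the caller had kept 754 (58.8%), a step that precedes the choice by position.

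**Figure D3:**
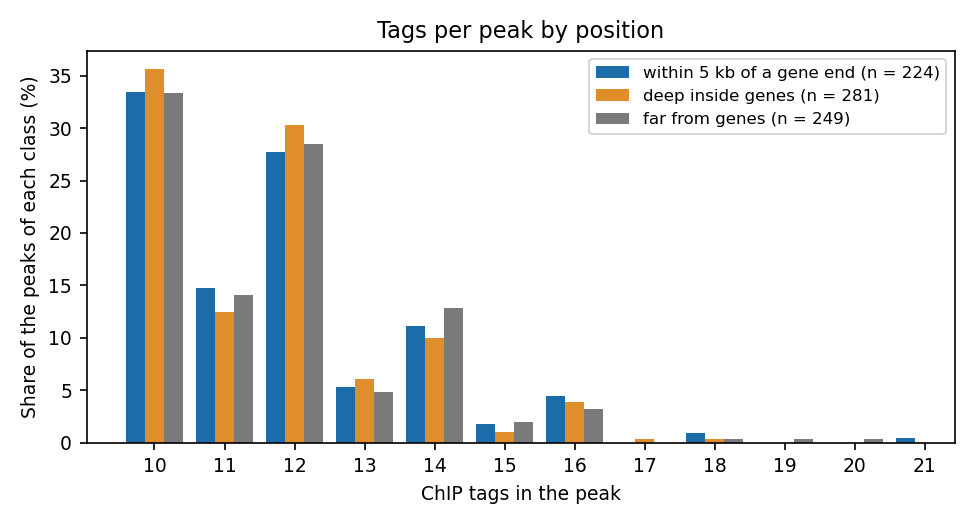
Share of peaks (%, y axis) by the number of ChIP tags they hold (x axis) for the 224 peaks within 5 kb of a gene end, the 281 deeper inside genes and the 249 far from genes. The distributions overlapped throughout, with a median of 12 tags in each class.

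Among the 224, peaks close to the end included a larger share with many tags. Of the 77 peaks within 1 kb of an end, 22 held 14 or more tags (28.6%, 18.8 to 40.0), against 20 of the 147 farther out (13.6%, 8.51 to 20.2). The 2 intervals overlapped between 18.8 and 20.2%, and over all 754 peaks the share was the 17.8% given above. The median was 12 tags within 1 kb and 11 beyond it, a gap of a single tag that lies far inside the counting interval of any peak. Scaled input was raised in 4 of the 77 and in 9 of the 147. By kind of gene the shares with 14 or more tags were 20.2% for protein-coding genes, 17.6% for long non-coding genes and 19.0% for pseudogenes, and their intervals overlapped. By end they were 22.4% at starts (13.6 to 33.4) and 13.1% at 3′ ends (5.84 to 24.2). The 1 kb limit was set after earlier results of these data were known, and none of these differences was tested.

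**Figure D4:**
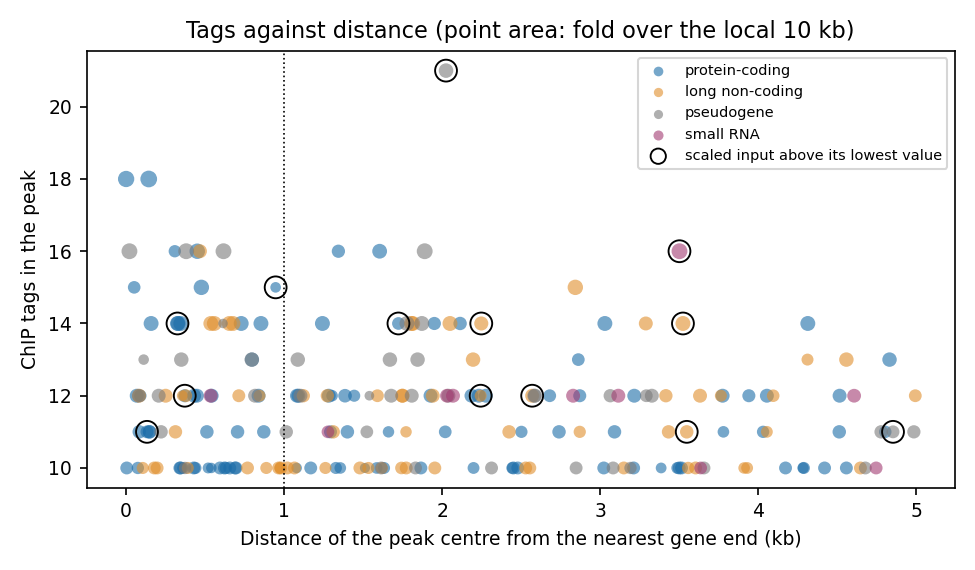
ChIP tags (y axis) against the distance of the peak centre from the nearest gene end (kb, x axis), coloured by kind of gene, with the point area following the fold over the local 10 kb and rings marking the 13 peaks with raised input. The 2 peaks of 18 tags sit within 0.2 kb of an end, while the peak of 21 tags, 2024 bp away, has 5.2 scaled input tags.

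The chromatin around the peaks near ends was more often above the floor of the local background than around peaks far from genes. The caller divides each peak by the tag density of the surrounding 10 kb, which has a lowest value that many peaks share. That density stood above its lowest value in 92 of the 224 peaks (41.1%, 34.6 to 47.8), against 35.3% of all peaks, 39.9% of the 281 peaks deeper inside genes (34.1 to 45.8) and 24.9% of the 249 far from genes (19.7 to 30.8). The fold over the local region had a median of 11.03 near ends, 11.33 deeper inside genes and 11.89 far from genes. It was under 8 in 12 of the 224 peaks (5.36%), in 13 of the 281 (4.63%) and in 2 of the 249 (0.803%). The lowest were 4.94 at the pseudogene Gm7281, with 14 tags, and 5.18 at Vmn2r-ps20, a vomeronasal receptor pseudogene, with 12. The peaks at Vmn2r-ps20, Tmem132d, Gm13141 and Gm30122, with local folds of 5.18 to 6.85, had another peak 2050 to 5066 bp away. Whether the tags of such a neighbour raised the local density was not tested, and neighbours were not counted in the other classes. Whether mappable sequence or open chromatin differed between the classes was not tested.

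Of the 13 peaks near gene ends with 16 or more tags, 6 were nearest to a protein-coding gene, 5 to a pseudogene, 1 to a long non-coding gene and 1 to a microRNA gene, where pseudogenes made up 18.8% of all 224. Nr2f1 itself had none: the closest peak to its ends lay 0.616 Mb away. The highest count, 21 tags, lay 2024 bp from the pseudogene 2210409E12Rik and between Coil and Elobl, outside both and 3321 and 3683 bp upstream of their starts, which face away from each other. Coil encodes coilin, the scaffold of Cajal bodies. This peak also had 5.2 scaled input tags and so a fold over input of only 4.07.

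At Acbd3, a Golgi protein gene on chromosome 1, and at Tm2d1, which encodes a membrane protein that binds amyloid beta, the peaks held 18 tags each (10.67 to 28.45), with 9.69-fold more than the input. The centre lay on an outermost base of Acbd3, at 0 bp from that end, and 143 bp inside Tm2d1 (chromosome 4, 98382997 to 98383247). These 2 peaks had a fold over the local 10 kb of 18.4 and 19.46, with input at its lowest value. Neither gene had a strand in the table used, so start and 3′ end were not told apart there.

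A further 7 of the 10 peaks with the most tags held 16 tags each (9.15 to 25.98). The Tmem259 peak lay 450 bp inside this gene of the membrane protein membralin (chromosome 10, 79983750 to 79984000). The Ralb peak lay 1604 bp downstream of the start of this small GTPase gene (chromosome 1, 119503053 to 119503303). The peak at the pseudogene Gm8376 lay 1018 bp upstream of Synj2, which encodes the phosphoinositide phosphatase synaptojanin 2 (chromosome 17, 5940137 to 5940387). Those at the pseudogenes Gm15744, Gm51468 and Rps2-ps11 had no protein-coding gene in reach. The Gm15744 peak was centred outside that pseudogene but inside another gene, whose ends lay out of reach. The last of the 7, at Mir101c, had 3.4 scaled input tags and a fold over input of 4.65, where the other 6 had 8.61. Gm40320, Hps5 and Trappc10 also held 16 tags but had lower local folds, of 12.95, 11.51 and 9.71. Intervals of all these peaks overlapped, so their order carries no weight.

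A protein-coding end lay within 250 bp of the centre in 12 peaks, including Acbd3 and Tm2d1. Of these genes, 6 had a strand, and at 5 of the 6 the end was the start. Chrna1, the muscle acetylcholine receptor alpha subunit gene, had its start 4 bp from the centre of a peak of 10 tags (chromosome 2, 73580217 to 73580467). Cyb5r4, a cytochrome b5 reductase gene, had a peak of 12 tags centred 67 bp downstream of its start (chromosome 9, 87021950 to 87022200). Nrf1, the transcription factor gene for nuclear respiratory factor 1, had 11 tags centred 132 bp upstream (chromosome 6, 30047728 to 30047978). Its input was raised to 2.6 scaled tags, and its scaled tag value corresponds to 10.03 tags rather than 11. Ndel1, which encodes a dynein regulator needed for neuronal migration, had 11 tags centred 149 bp upstream (chromosome 11, 68853170 to 68853420).

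The peak at Serpinb6a, a protease inhibitor gene, held 11 tags and lay 147 bp inside its start (chromosome 13, 34002522 to 34002772). It also lay 422 bp inside the outermost start of Ripk1, the gene of a kinase in inflammation and cell death. Relative to the start of the Ripk1 promoter window, whose shared stretch is printed above, the centre lay upstream, at -227 bp. These 2 genes overlap at their starts and run in opposite directions. The sixth gene with a strand, Cdkal1, a tRNA-modifying enzyme gene, had 15 tags 51 bp past its 3′ end (chromosome 13, 29191570 to 29191820). Among the 4 remaining genes without a strand, Cox17, a copper chaperone gene of cytochrome c oxidase, had 14 tags at 158 bp outside. Smim5 had 12 tags at 90 bp inside, the olfactory receptor gene Olfr166 had 11 at 83 bp inside, and the interleukin gene Il15 had 10 at 74 bp inside.

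**Figure D5:**
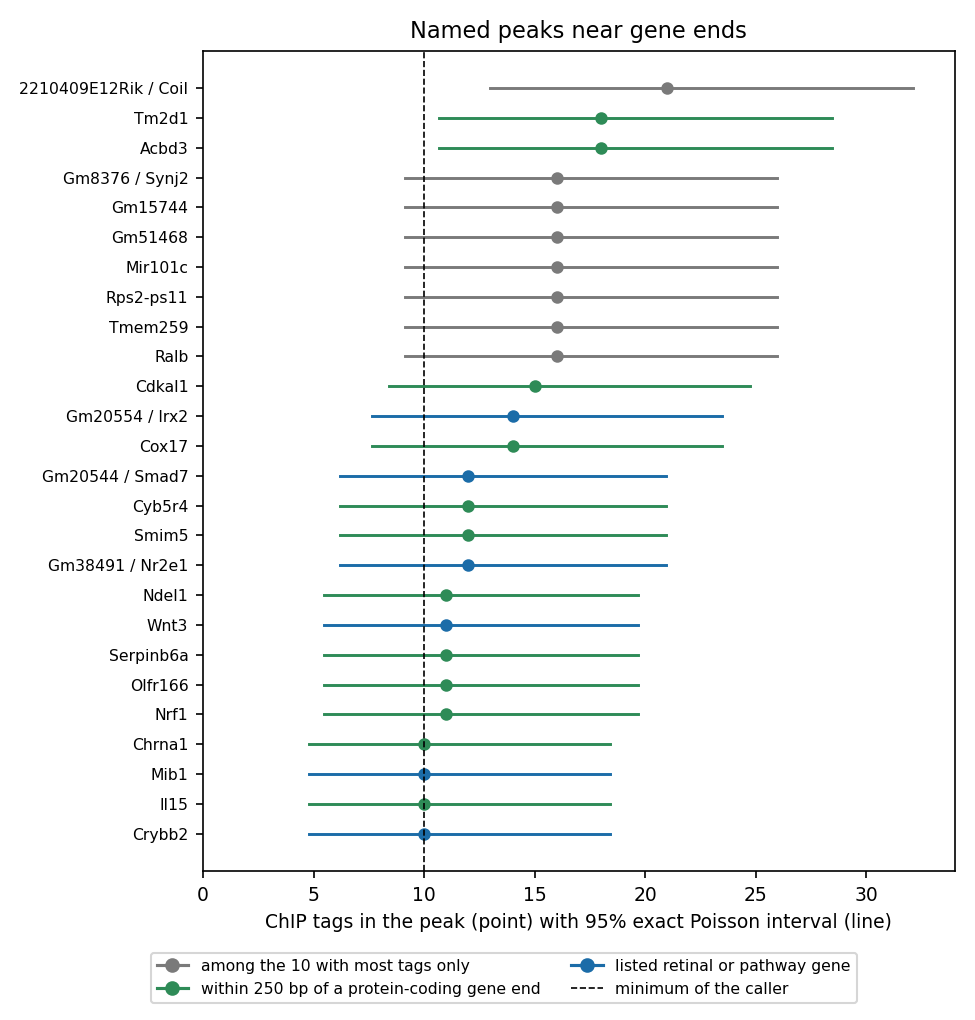
ChIP tags (x axis, points) with 95% exact Poisson intervals (lines) for the 26 peaks named by rule, labelled by the gene with the nearest end and, after a slash, the nearest protein-coding gene where that is another. Intervals of all 26 peaks overlap, and the dashed line marks the 10 tags the caller required.

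Of the genes on 15 lists, 6 of 447 (1.34%) had an end in reach of a peak, where 0.656% of protein-coding genes and 0.585% of all genes did. Whether these shares differ was not tested, and the first rests on 6 genes. Besides retinal and signalling genes, the lists held genes of the cell cycle, chromatin, and vessels, mesenchyme and blood. Irx2, an Iroquois homeobox gene of ganglion cells, had the highest count of the 6, with 14 tags (chromosome 13, 72622665 to 72622915). That peak was centred 1640 bp upstream of its start and 676 bp past the 3′ end of the non-coding gene Gm20554. Nr2e1, which encodes the orphan nuclear receptor Tlx of retinal progenitors, had 12 tags 4476 bp upstream of its start, with 2.6 scaled input tags (chromosome 10, 42587941 to 42588191). Nearer to this peak were ends of the non-coding gene Gm38491, at 2243 bp, and of the pseudogene Gm5036, at 3608 bp. The Wnt3 peak of 11 tags lay 871 bp inside the 3′ end of this Wnt ligand gene (chromosome 11, 103817025 to 103817275). The Crybb2 peak of 10 tags lay 519 bp downstream of the start of this lens crystallin gene, with a local fold of 7.19 (chromosome 5, 113069473 to 113069723). The other two were Smad7, whose protein dampens TGF-beta receptor signals (12 tags, 3908 bp outside), and Mib1, a ubiquitin ligase gene of the Notch pathway, with 10 tags at 631 bp inside.

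By list this gave 1 of 23 progenitor and eye field genes, 1 of 24 ganglion cell genes, 1 of 30 Notch genes, 1 of 45 Wnt genes, 1 of 47 Hedgehog, BMP, TGF-beta and FGF genes and 1 of 19 pigment epithelium and lens genes. No gene had an end in reach among 22 of horizontal and amacrine cells, 19 of photoreceptors and 19 of bipolar cells and Mueller glia. The same held for 45 nuclear receptors and cofactors, 25 of the optic stalk and retinal axes, 46 of axon guidance and adhesion, 39 of the cell cycle and 30 chromatin regulators. It held as well for 24 markers of vessels, mesenchyme and blood. At 0.656% a list of 45 genes would hold less than 1 such gene, so counts of 0 and 1 do not tell the lists apart.

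Some genes outside the lists are known for roles in the eye, cilia, centrioles or development and are named here after their values were seen. They were picked from the 142 protein-coding genes in reach. How many genes have such roles over all genes was not counted, so they show no theme. Cnga3, which encodes the channel of cone phototransduction, had 11 tags 3090 bp past its 3′ end (chromosome 1, 37266349 to 37266599). Dio3, whose enzyme inactivates thyroid hormone, had 10 tags 359 bp inside its 3′ end (chromosome 12, 110280613 to 110280863). Rfx3 and Rfx4, which encode transcription factors of ciliary genes, had 12 tags each, both near the 3′ end, at 1385 and 3774 bp inside. Plk4 and Cep152, partners in centriole duplication, had 12 and 10 tags, also near the 3′ end, at 734 bp outside and 3514 bp inside. Foxo6, a forkhead gene of the brain, had 14 tags at 1723 bp inside, but with 3.4 scaled input tags and a fold over input of 4.07. Nkx2-4, a homeobox gene of the hypothalamus and thyroid, had 14 tags 329 bp downstream of its start, and Fgf18, a growth factor gene, 12 tags 1443 bp downstream of its start. The integrin gene Itga9 had 15 tags 476 bp downstream of its start at a local fold of 16.21.

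Small RNA genes, here all genes that were neither protein-coding, long non-coding nor pseudogenes, had an end in reach in 16 of 4718 (0.339%), against 0.585% of all genes. Of the 16, 9 were microRNA genes, and they lay within 5 kb of 7 peaks. The mature sequences near the peak of 16 tags at Mir101c and near the peak of 12 tags at the Mir144 and Mir451a cluster are printed with the seed, bases 2 to 8, in capitals, since the first had the most tags of the 7 and the second had the most microRNA genes in reach. The first peak lay 3501 bp outside Mir101c with raised input (chromosome 9, 3035043 to 3035293). The second lay 2068 bp outside Mir144 and 2233 bp outside Mir451a and Mir451b, at a local fold of 12.97 with input at its lowest value (chromosome 11, 78070812 to 78071062). It also lay 2439 bp past the 3′ end of the protein-coding gene Eral1. No seed was shared between them, and none of the peaks covered a hairpin.
mmu-miR-101c (chr9:3038680-3038698, minus strand): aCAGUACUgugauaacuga
mmu-miR-144-5p (chr11:78073010-78073032, plus strand): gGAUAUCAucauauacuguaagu
mmu-miR-144-3p (chr11:78073047-78073066, plus strand): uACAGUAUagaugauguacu
mmu-miR-451a (chr11:78073186-78073207, plus strand): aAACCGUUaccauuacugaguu
mmu-miR-451b (chr11:78073219-78073239, minus strand): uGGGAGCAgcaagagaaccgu

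At least 2 genes had an end in reach of 63 of the 224 peaks (28.1%, 22.3 to 34.5). In 33 of them at least 2 of the genes had a strand, and the ends nearest to the peak were 2 starts in 12, a start and a 3′ end in 17 and 2 3′ ends in 4. The pairs of starts included Serpinb6a with Ripk1, Hps1 with the non-coding Gm16244 (14 tags, raised input), Nkx2-4 with Gm34889 (14 tags) and Pi4ka with Snap29 (12 tags). Between the converging 3′ ends of Mfsd8 and Plk4, 448 and 734 bp away, lay a peak of 12 tags (chromosome 3, 40817492 to 40817742). In such places the peak cannot be given to one gene over the other.

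The same gene was reached by 2 of the peaks in 5 of the 290 genes. Trappc10, a gene of the TRAPP vesicle trafficking complex, had 16 tags at 308 bp and 12 tags at 3880 bp upstream of its start, 3572 bp apart, and the latter lay 355 bp past the 3′ end of Gm30122. The Trappc10 and Gm30122 peaks had local folds of 9.71 and 6.85. At Tmem132d, 2 peaks of 10 tags lay 2050 bp apart, 539 bp outside and 1511 bp inside the same end, with local folds of 6.47 and 5.88. The pseudogene Gm13141 had peaks of 13 and 12 tags with local folds of 6.56 and 5.18, the second being the peak at Vmn2r-ps20. Hps5, a gene of lysosome-related organelles such as pigment granules, had a peak past each end, of 16 tags at 1343 bp from the 3′ end and of 12 tags at 4543 bp from the start. Of the 224 peaks, 6 had another peak within 10 kb, and these were the pairs at Trappc10, Tmem132d and Gm13141.

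The share of peaks near gene ends varied from chromosome to chromosome, which was not tested. It was 21 of 43 on chromosome 5 (48.8%) and 22 of 50 on chromosome 11 (44.0%), against 5 of 37 on chromosome 9 (13.5%) and 5 of 34 on chromosome 17 (14.7%). Chromosome 1 had 22 of 59, and the X chromosome 3 of 9. The limit of 5 kb did not fall in a gap. Just inside it lay peaks at the non-coding gene Gm46277 (4993 bp, 12 tags) and the pseudogene Gm12845 (4984 bp, 11 tags). Just outside lay peaks at the pseudogene Gm48106 (5001 bp, 14 tags) and at Mettl7a3 (5010 bp, 10 tags).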

How the data were processed

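ChIP-seq was done on 1 anti-COUP-TFI library and 1 input library. Read checks with FastQC, Bowtie2 2.3.1, HOMER 4.2 and the build mm10 are listed per the submitters' processing notes. Per the file headers, peaks of 251 bp were called with HOMER findPeaks from a library of 7371400 tags, with a minimum of 10 tags and of 4-fold over input and over the surrounding 10 kb. The deposited tag counts per peak are whole and not scaled. Among peaks near gene ends with 11 to 16 tags, even counts (97) outnumbered odd ones (49), for a reason that was not tested. Counting intervals treat tags as independent and cover counting error only, so they are a lower bound on the uncertainty. In 4 of the 224 peaks the count differs by more than 0.1 from the scaled tags converted back to the ChIP library's size. The deposited signal values are scaled tags and scaled input. The authors' fold ratios and p-values against input and the local region are unadjusted, and the p-values, the caller score and the focus ratio, a fraction deposited by the authors, were not used for any result. The depth of the input library is not given in the sources used here.

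Distances were computed in Python 3.11.15 from the peak centre to gene ends in the RefSeq table (49554 of 49997 genes, on chromosomes 1 to 19 and X). Strand came from the RefSeq promoter windows, which matched 26794 of these genes. No genome was used. The peak class, the gene lists and the limits were chosen with earlier results of these data known. Named are Nr2f1, the 10 peaks with most tags (ties by local fold), those within 250 bp of a protein-coding end, those with a listed gene in reach and those next to 5 kb. Genes with 2 peaks, gene pairs, microRNA genes, genes of touched promoter windows, low local folds and further genes of known role were named after their values were seen. No test was run, since peaks of 1 library are not replicates. Scripts for distances and motifs were checked on made-up positions. Alternatives varied distance, kinds of gene, the peak list and the motif.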

Additional observations from a re-analysis of the deposited data

How the results depend on the processing

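Of 31 alternatives, 22 stayed within 1.5 times the count, the interval of the share or the quartiles of the median, and 9 did not. Some of these limits could hardly be left, so staying within them says little. The motif share was judged against 0 to 26.5%, from 0 of 12 windows. Median tags were judged against quartiles of 10 and 12, where 10 was the caller's minimum. By construction, the 224 peaks became 77 at a distance of 1 kb, 134 at 2 kb, 120 with protein-coding genes only and 116 with peaks of 12 or more tags. At 1 kb the start was the nearest end in 66.7%, against 55.5%. The median local fold was 9.71 for peaks with local density above its lowest value. The 6 listed genes became 3 at 1 kb, 10 at 10 kb and 3 with only the gene of the nearest end. The 2 alternatives on GGGTCA and on starts within 5 kb were chosen after seeing the data. The motif search in the central 100 bp of peaks was not run, since it needs a genome. No paired analysis was possible because there was only 1 ChIP and 1 input library. Peaks held 10 to 21 tags, where the caller required 10, so single counts have wide intervals.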
